A study of Mus musculus with 12 samples.

Results

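Transcripts of 6 genes of the CD44 and hyaluronan system, Cd44, Vcan, Hyal1, Hyal2, Has1 and Has2, were followed in mouse kidney. They were chosen for their known roles and looked up by symbol among 23238 different symbols, and all 6 were found. Kidneys of C57BL/6 mice were profiled in 12 libraries by QuantSeq, which reads the 3′ ends of polyadenylated RNA. The groups were CKD TRF, mice with chronic kidney disease kept on time restricted feeding (4 libraries), CKD, mice with the disease alone (4 libraries), and Control, mice without it (4 libraries). The disease model, the feeding hours, the sampling hour, and the age and sex of the mice are not given in the sources used here, and no label says that each library came from its own animal.

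Hyaluronan is a long, unsulfated sugar polymer that is made at the plasma membrane by the hyaluronan synthases and extruded into the matrix. Hyaluronidases such as HYAL1, a lysosomal enzyme, and HYAL2, which is anchored at the cell surface, cut it into fragments. CD44 is its main cell surface receptor, an adhesion molecule of leukocytes, stromal cells and regenerating epithelium, and versican, the product of Vcan, is a large chondroitin sulfate proteoglycan that binds hyaluronan and CD44 in provisional matrix. In the healthy kidney hyaluronan is found mostly in the inner medulla, and CD44 is known to appear on injured tubules and in the interstitium.

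Levels are given as log2(scaled reads + 1), as deposited, or as scaled reads, which are close to CPM (counts per library scaled to a common total). The libraries held 10989763 to 17209965 reads, and a gene without reads could still be present at up to 3 reads, or 0.168 to 0.306 scaled reads by library (counting error only). Scaled reads summed to 987841 to 1025834 in CKD TRF, 941189 to 978419 in CKD and 1076773 to 1180101 in Control. All 6 proximal tubule markers checked were present, at a summed level of 5171 to 6324 scaled reads in CKD TRF, 4756 to 5354 in CKD and 5970 to 7629 in Control. The libraries CKD TRF 1, 3 and 4 and CKD 2 and 4 held RNA of fat, with summed fat markers at 102 to 512 scaled reads against 14.0 to 47.0 in the other 7. They were set by a mean log2 level of the fat markers more than 1 above the Control median. Most of the sum in Control was Car3, at 23.1 to 46.3 scaled reads. CKD 1 and 3 were not flagged but had Cfd at 8.36 and 2.09, against at most 0.83 in Control. Bulk RNA cannot tell fewer cells of a type from less RNA per cell.

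Cd44 and Vcan, the receptor and the proteoglycan, were much higher in diseased kidneys. The transcripts of the hyaluronidases Hyal1 and Hyal2 overlapped between all groups, and those of the synthases Has1 and Has2 were at or near 0. Of the 6 members 4 were tested in CKD against Control, 2 rose and none fell, where 45.4% of the 13943 tested genes differed (23.6% rose and 21.8% fell). Has1 and Has2 lay below the filter on low values and were not tested. In CKD TRF against Control Cd44 and Vcan rose as well, where 37.5% of genes differed (19.5% rose and 17.9% fell). Both lay above Control without overlap in each diseased group. Of all tested genes 39.5% did not overlap between CKD and Control (20.3% higher, 19.2% lower) and 31.9% between CKD TRF and Control (16.3% higher, 15.6% lower). In CKD TRF against CKD none of the 4 passed, and neither did any other gene (0%; 889 genes had an unadjusted p under 0.05 in limma, and limma voom on recovered reads called 0). Scaling the libraries to equal sums changed the split of CKD against Control from 3297 higher and 3036 lower to 4989 higher and 1547 lower, with the median of all genes shifted by 0.20. Median centring shifted it by -0.10, to 2650 higher and 3918 lower. In CKD TRF against Control the split was 2724 higher and 2501 lower, 3656 and 1431 with equal sums, and 2296 and 3227 with median centring. Cd44 and Vcan were higher than Control under each of these scalings.

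**Figure D1:**
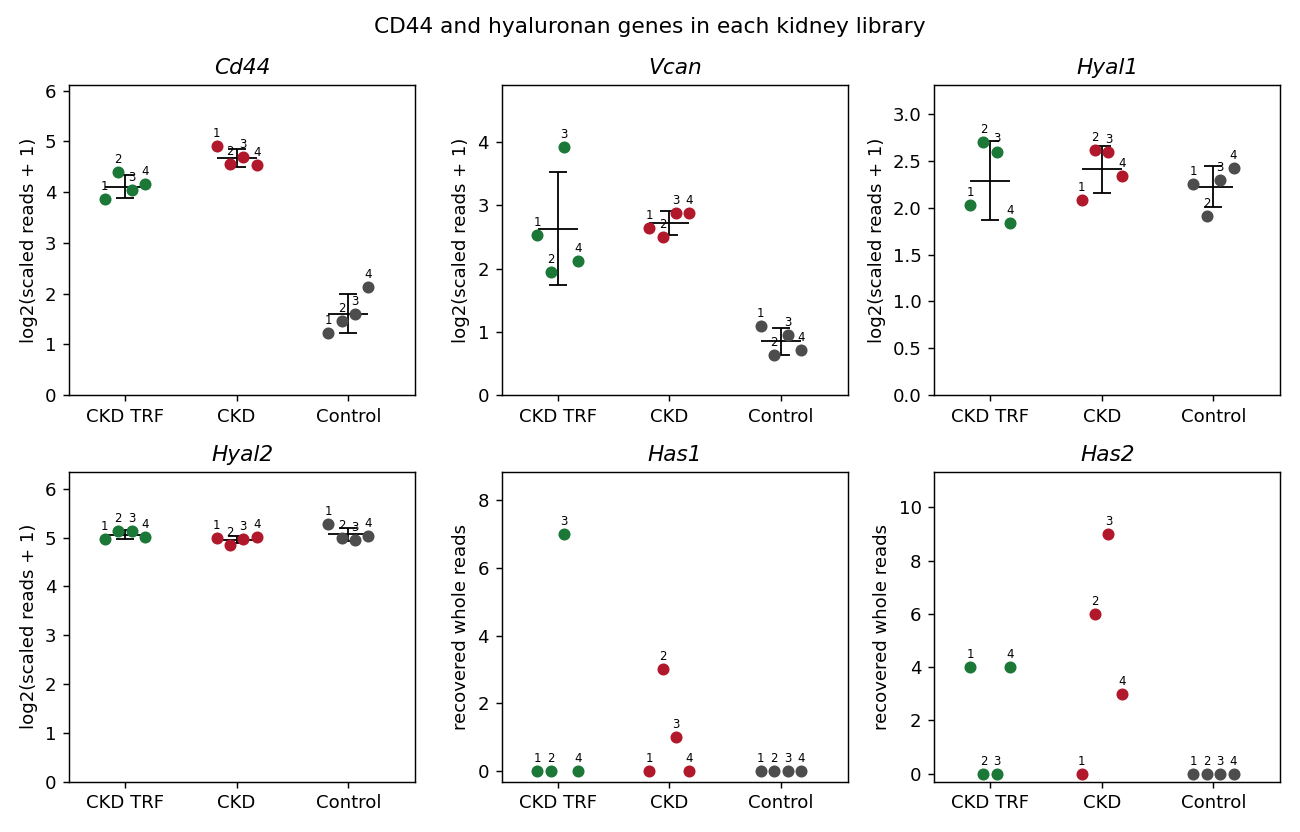
Levels of the 6 genes in each library (numbers are the library numbers). The vertical axis is log2(scaled reads + 1), with group mean and SD, for Cd44, Vcan, Hyal1 and Hyal2, and recovered whole reads for Has1 and Has2. Cd44 and Vcan of all 8 diseased libraries lie above the 4 Control libraries, Hyal1 and Hyal2 overlap between groups, and Has1 and Has2 have 0 reads in every Control library.

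Cd44 (ENSMUSG00000005087.17, chromosome 2, 102811141 to 102901665, minus strand, mm10) stood at 3.86, 4.39, 4.03 and 4.16 on the log2 scale in CKD TRF libraries 1 to 4. It stood at 4.91, 4.55, 4.69 and 4.54 in CKD libraries 1 to 4, and at 1.22, 1.46, 1.60 and 2.13 in Control libraries 1 to 4. All CKD libraries were above all CKD TRF libraries, and both were above all Control libraries. On the linear scale this was 16.4 ± 2.71 scaled reads in CKD TRF, 24.7 ± 3.17 in CKD and 2.12 ± 0.887 in Control (SD, n = 4 each). The Control values rested on 13 to 37 reads, those of CKD TRF on 189 to 301 and those of CKD on 340 to 448. The mean level in CKD was 11.6 times that in Control, and the log2 change was 3.07 ± 0.19 (SE, limma adjusted p = 3.73e-10), the 24th highest of all tested genes. In CKD TRF the mean was 7.73 times that in Control, a log2 change of 2.51 ± 0.19 (limma adjusted p = 8.5e-09). The rise was as large without the libraries that held fat RNA, at 3.20 ± 0.28 in CKD (libraries 1 and 3) and 2.79 ± 0.36 in CKD TRF (library 2 alone, assumed to vary like the others).

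Cd44 was the member with the lowest p between the diseased groups, but the difference did not pass. Its level in CKD TRF was 0.666 times that in CKD, a log2 change of -0.56 ± 0.19 (95% interval -0.96 to -0.16, unadjusted p = 0.00821, limma adjusted p = 0.705). By size it was the 146th lowest of 13943 changes. The groups did not overlap, where 4.5% of all tested genes did not overlap (2.37% higher, 2.13% lower). The change ran from -0.67 to -0.41 over the 28 alternatives, many of which could not turn its sign. Fits such as no filter, no trend or a replicate block could not move it from -0.56. Leaving out 1 diseased library could not turn it either, since the groups did not overlap. The summed level of 6 fibroblast markers also did not overlap between these groups, at 669 to 801 scaled reads in CKD TRF and 826 to 920 in CKD. That of 5 markers of injured tubules was 82.0 to 132 in CKD TRF and 124 to 170 in CKD. Within each diseased group Cd44 was lower in the libraries that held fat RNA, at 13.5 to 16.8 scaled reads in CKD TRF 1, 3 and 4 against 19.95 in CKD TRF 2, and at 22.3 and 22.4 in CKD 4 and 2 against 29.1 and 24.8 in CKD 1 and 3. The libraries that held fat RNA were also higher in collecting duct and urothelium markers, so this split is not by fat alone. The part of each was not tested. Without these libraries the difference between CKD TRF and CKD was -0.41 ± 0.39, with CKD TRF 2 alone left. The part of fibroblasts and injured tubules in the Cd44 difference was not tested.

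Vcan (ENSMUSG00000021614.16, chromosome 13, 89655312 to 89742509, minus strand) stood at 2.54, 1.95, 3.93 and 2.12 in CKD TRF libraries 1 to 4, at 2.65, 2.50, 2.87 and 2.88 in CKD libraries 1 to 4, and at 1.09, 0.64, 0.95 and 0.71 in Control libraries 1 to 4 (log2 scale). Every diseased library was above every Control library, and CKD TRF 3 stood well above all others, with 238 reads against 43 to 67 in the other CKD TRF libraries. The linear level was 6.30 ± 5.33 scaled reads in CKD TRF, 5.65 ± 0.841 in CKD and 0.813 ± 0.264 in Control (SD, n = 4 each). The log2 change was 1.88 ± 0.31 in CKD (limma adjusted p = 7.26e-05) and 1.78 ± 0.31 in CKD TRF (limma adjusted p = 0.000178), both against Control. Control libraries held only 6 to 11 Vcan reads, and the size moved with the number added before logs and the test, from 1.00 with 4 added to 3.00 in limma voom for CKD, and from 0.98 to 2.82 for CKD TRF. The call in CKD TRF was lost with urothelium markers as a covariate (1.54 ± 0.56, adjusted p = 0.0836). It was also lost without the libraries that held fat RNA (1.10 ± 0.37, adjusted p = 0.0722), where CKD TRF 2 alone was left. In CKD the change was 1.65 ± 0.53 (adjusted p = 0.036) and 1.91 ± 0.29 (adjusted p = 0.000322) under these fits. Between CKD TRF and CKD Vcan differed by -0.09 ± 0.31 (95% interval -0.75 to 0.56, limma adjusted p = 0.975). Without CKD TRF 3 this was -0.52, and it was 0.14 without CKD TRF 2 and 0.08 without CKD TRF 4.

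The promoters of both genes that rose are shown because both transcripts rose in each diseased group. They are RefSeq windows (build GRCm38.p6, the same assembly as mm10) of 300 bases, 250 before the start and 50 after it, printed on the gene's strand. The Cd44 window is chr2:102901616-102901915 and the Vcan window chr13:89742463-89742762, both on the minus strand, and capitals mark GGGCGG, the core of the SP1 site, on either strand.
Cd44: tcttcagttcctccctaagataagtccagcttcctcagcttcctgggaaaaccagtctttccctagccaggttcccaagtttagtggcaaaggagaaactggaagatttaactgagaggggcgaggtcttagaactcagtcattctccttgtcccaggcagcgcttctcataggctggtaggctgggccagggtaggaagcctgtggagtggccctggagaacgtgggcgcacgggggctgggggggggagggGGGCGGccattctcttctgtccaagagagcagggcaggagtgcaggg
Vcan: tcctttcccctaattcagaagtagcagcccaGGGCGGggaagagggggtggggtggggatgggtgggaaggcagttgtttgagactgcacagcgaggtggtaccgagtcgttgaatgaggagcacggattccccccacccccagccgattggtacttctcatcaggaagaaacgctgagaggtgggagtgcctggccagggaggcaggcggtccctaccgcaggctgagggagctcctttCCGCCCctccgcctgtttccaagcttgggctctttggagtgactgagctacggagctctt
Both strands were searched for GGGCGG, the AP-1 site TGANTCA, an NF-kB form, the E-box CACGTG, the TATA box TATAAA and the TCF/LEF site CTTTGAA. No motif matches overlapped each other in these 2 windows. GGGCGG was found at position 254 of the Cd44 window and at positions 32 and 241 of the Vcan window, the last on the opposite strand. It is present in 35.7% of 32851 windows of this length. It was also in the windows of Hyal1 (positions 174 and 179) and Hyal2 (position 204), which were not called in any comparison, so it does not set apart the genes that rose. None of the other 5 motifs was in these 2 windows. They are present in 7.81% (AP-1), 1.63% (NF-kB), 7.15% (E-box), 13.6% (TATA) and 5.14% (TCF/LEF) of all windows. The G and C content was 58.0% for Cd44 and 61.0% for Vcan, against a median of 52.7% over all windows. Windows were matched for 5 of the 6 members, all but Has2.

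Hyal1 and Hyal2 showed no difference past the threshold in any comparison. Hyal2 (ENSMUSG00000010047.12, chromosome 9, 107567945 to 107572779, plus strand) stood at 4.96 to 5.14 in CKD TRF, 4.85 to 5.01 in CKD and 4.96 to 5.27 in Control on the log2 scale. This came from 336 to 570 reads per library, and the linear level was 32.5 ± 2.00 scaled reads in CKD TRF, 30.1 ± 1.55 in CKD and 32.6 ± 3.44 in Control (SD, n = 4 each). The 3 groups overlapped. CKD differed from Control by -0.11 ± 0.11 (95% interval -0.34 to 0.12, limma adjusted p = 0.449), which excludes a fall below 0.788 times or a rise above 1.09 times on the deposited scale. The sign turned to 0.11 with equal sums and to 0.12 in limma voom. CKD TRF differed from Control by -0.0035 ± 0.11 (95% interval -0.24 to 0.23, limma adjusted p = 0.985) and from CKD by 0.11 ± 0.11 (95% interval -0.13 to 0.34, limma adjusted p = 0.898), and the first of these also turned sign with equal sums, to 0.14.

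Hyal1 (ENSMUSG00000010051.15, chromosome 9, 107576927 to 107581710, plus strand) lies just downstream of Hyal2. Its annotation overlaps that of Hyal3 and Naa80 at the 3′ end on the same strand, so reads of these genes could be shared. It stood at 1.83 to 2.70 in CKD TRF, 2.09 to 2.62 in CKD and 1.91 to 2.43 in Control on the log2 scale, from 30 to 92 reads per library. The linear level was 4.05 ± 1.45 scaled reads in CKD TRF, 4.38 ± 0.902 in CKD and 3.71 ± 0.682 in Control (SD, n = 4 each), and the groups overlapped. CKD differed from Control by 0.19 ± 0.23 (95% interval -0.29 to 0.67, limma adjusted p = 0.53) and CKD TRF from Control by 0.07 ± 0.23 (-0.41 to 0.54, limma adjusted p = 0.842). CKD TRF differed from CKD by -0.12 ± 0.23 (-0.60 to 0.36, limma adjusted p = 0.952). The signs of all 3 turned under some alternatives, to -0.14, -0.22 and 0.36, and none was called. Hyal3, a further hyaluronidase, stood at 1.64 ± 0.394 scaled reads in CKD TRF, 1.36 ± 0.356 in CKD and 0.973 ± 0.294 in Control (SD, n = 4 each; CKD against Control 0.26 ± 0.23, limma adjusted p = 0.384).

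**Figure D2:**
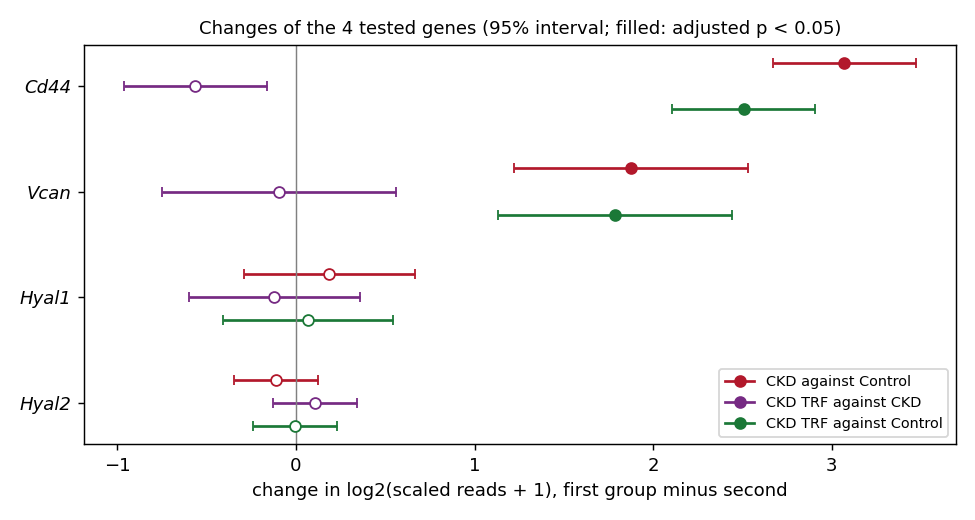
Changes in log2(scaled reads + 1) of the 4 tested genes with 95% intervals from limma (first group minus second, n = 4 per group), filled where the adjusted p is below 0.05. Cd44 and Vcan are filled against Control in both diseased groups, at 3.07 and 1.88 for CKD and 2.51 and 1.78 for CKD TRF, and every interval of Hyal1 and Hyal2 includes 0.

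Both synthases were near the limit of detection. Has2 (ENSMUSG00000022367.7, chromosome 15, 56665627 to 56694539, minus strand), the main synthase of mesenchymal tissue, had 4, 0, 0 and 4 reads in CKD TRF libraries 1 to 4, 0, 6, 9 and 3 reads in CKD libraries 1 to 4, and 0 reads in all 4 Control libraries. Over the group this came to 0.130 CPM in CKD TRF and 0.287 in CKD, whereas 0 reads in Control allow up to 0.0618 CPM. The limit is taken as 3 reads over the group, and the reads came from 2 of 4 CKD TRF libraries and 3 of 4 CKD libraries. In the fits without the filter on low values neither diseased group passed against Control. The adjusted p was 0.34 in limma and 0.433 in limma voom for CKD TRF, and 0.0612 in limma and 0.0804 in limma voom for CKD. Its antisense RNA Has2os overlaps Has2 on the other strand and had 4 reads in CKD TRF, 5 in CKD and 0 in Control. Has1 (ENSMUSG00000003665.7, chromosome 17, 17843323 to 17855205, minus strand) had 7 reads in CKD TRF, all in library 3, and 4 in CKD, 3 of them in library 2 and 1 in library 3. It had 0 reads in Control, and no difference was detectable at this depth. The third synthase, Has3, also lay below the filter on low values.

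Most genes around the 6 members moved less than Cd44 and Vcan. Among 79 further genes of hyaluronan, CD44 and versican biology in 7 lists, 60 were tested, and in CKD 21 rose and 6 fell against Control, with a median change of 0.17 against 0.02 over all tested genes. These 27 are 45.0% of the 60, near the 45.4% called among all tested genes. In CKD TRF 20 rose and 5 fell against Control, 41.7% of the 60 beside 37.5% of all tested genes, and none differed between CKD TRF and CKD. By list the share called in CKD was 28.6% for sugar supply, 80% for breakdown, 42.9% for other receptors and 0% for hyaluronan-binding proteins. It was 57.1% for CD44 partners, 71.4% for versican partners and 35.7% for chondroitin sulfate synthesis. In CKD TRF the shares were the same except for breakdown (60%) and versican partners (57.1%).

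**Figure D3:**
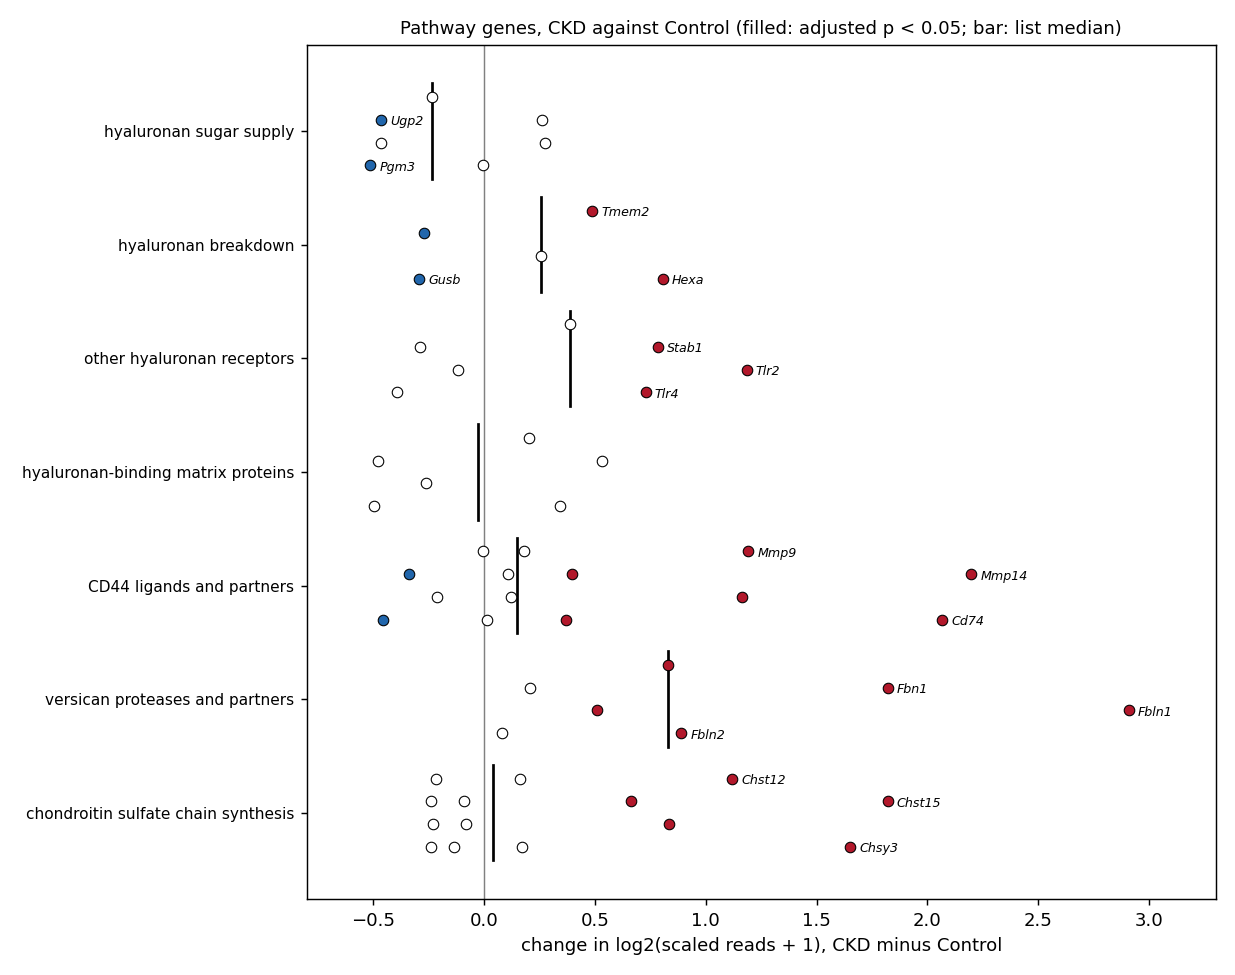
Change in log2(scaled reads + 1), CKD minus Control, of the 60 tested genes in 7 lists. Each point is a gene, red where it rose and blue where it fell with an adjusted p below 0.05, and open otherwise; the bar is the list median and names mark up to 3 called genes a list. Fbln1, Mmp14, Cd74, Fbn1 and Chst15 rose most, at 2.91, 2.20, 2.07, 1.82 and 1.82, and no hyaluronan-binding matrix protein is filled.

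Of the 7 tested genes that supply sugars for hyaluronan, none rose and 2 fell in both diseased groups against Control (median -0.24 in CKD). Ugp2, which makes UDP-glucose, averaged 105 ± 8.09 scaled reads in CKD TRF, 106 ± 3.94 in CKD and 148 ± 13.5 in Control (SD, n = 4 each). It fell by 0.47 ± 0.09 in CKD (limma adjusted p = 0.000426), and Pgm3, of the UDP-N-acetylglucosamine route, fell by 0.51 ± 0.12 (limma adjusted p = 0.00208). Both calls ended with equal sums (adjusted p = 0.0506 and 0.0732) and in limma voom (0.0548 and 0.0738). Ugdh, which makes the UDP-glucuronate that the synthases use, stood at -0.01 ± 0.12 (limma adjusted p = 0.973).

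Of 5 tested genes of hyaluronan breakdown, 2 rose and 2 fell in CKD, and 2 rose and 1 fell in CKD TRF. Hexa, a lysosomal hexosaminidase chain, averaged 63.6 ± 7.16 scaled reads in CKD TRF, 60.3 ± 7.97 in CKD and 33.9 ± 3.09 in Control (SD, n = 4 each), a rise of 0.81 ± 0.12 in CKD (limma adjusted p = 1.88e-05). Tmem2, a cell surface protein with reported hyaluronidase activity, rose by 0.49 ± 0.12 (limma adjusted p = 0.00326). The lysosomal glucuronidase Gusb fell by 0.29 ± 0.11 (limma adjusted p = 0.0391), a call lost in 14 of 28 alternatives (adjusted p = 0.0501 to 0.83), among them equal sums (-0.07) and the fits without CKD 2 or 4 or Control 1, 2 or 4.

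Of 7 other hyaluronan receptors, 3 rose and none fell in each diseased group (median 0.39 in CKD). Tlr2, an innate receptor reported to sense hyaluronan fragments, averaged 3.32 ± 0.471 scaled reads in CKD TRF, 3.87 ± 0.717 in CKD and 1.15 ± 0.391 in Control (SD, n = 4 each), a rise of 1.19 ± 0.21 in CKD (limma adjusted p = 0.000162). The scavenger receptor Stab1 rose by 0.78 ± 0.15 (limma adjusted p = 0.000297). Tlr4 rose by 0.73 ± 0.27 (limma adjusted p = 0.0302), a call lost in 11 of 27 alternatives (adjusted p = 0.0583 to 0.401), among them the fits without CKD 2, 3 or 4 or Control 2 or 3. With urothelium markers as a covariate Tlr2, Stab1 and Tlr4 all lost their call, at changes of 0.84, 0.35 and 0.78 in CKD TRF and 1.02, 0.46 and 0.58 in CKD. In CKD TRF they also lost it without the libraries that held fat RNA, at 0.81, 0.74 and 1.04, where CKD TRF 2 alone was left. Lyve1, the hyaluronan receptor of lymphatic vessels and some macrophages, stood at 0.39 ± 0.36 (limma adjusted p = 0.399). None of the 6 tested hyaluronan-binding and cross-linking proteins passed in either diseased group, and Hapln1, the link protein that ties versican to hyaluronan, stood at -0.48 ± 0.31 in CKD (limma adjusted p = 0.224).

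Of 14 ligands, partners, linkers, proteases and splicing factors of CD44, 6 rose and 2 fell in each diseased group against Control. Mmp14, a membrane protease that cuts CD44, averaged 42.2 ± 7.63 scaled reads in CKD TRF, 60.4 ± 9.72 in CKD and 12.6 ± 3.48 in Control (SD, n = 4 each), and rose by 2.20 ± 0.17 in CKD (limma adjusted p = 4.32e-09). Cd74, the invariant chain that pairs with CD44 as receptor of the cytokine MIF, rose by 2.07 ± 0.14 (limma adjusted p = 1.44e-09). Mmp9, a gelatinase that docks on CD44, rose by 1.19 ± 0.30 (limma adjusted p = 0.00318), a call lost in 2 alternatives (adjusted p = 0.0582 and 0.142). The other genes of this list named here were chosen after their values were seen. Among the other proteases, Adam17 fell by 0.34 ± 0.08 in CKD and by 0.33 ± 0.08 in CKD TRF (limma adjusted p = 0.00224 and 0.00389). Adam10 stood at 0.01 ± 0.11 in CKD (limma adjusted p = 0.938). Spp1, which encodes the CD44 ligand osteopontin, averaged 430 ± 87.9 scaled reads in CKD TRF, 474 ± 20.1 in CKD and 218 ± 60.9 in Control (SD, n = 4 each; 1.16 ± 0.16 in CKD, limma adjusted p = 7.13e-06). Of the linkers that tie the CD44 tail to actin, Ezr and Msn rose by 0.37 ± 0.09 and 0.40 ± 0.09 and Rdx fell by 0.46 ± 0.10 in CKD (limma adjusted p = 0.00256, 0.00127 and 0.000905). For these linkers, as for the other genes chosen after their values were seen, calls under the alternatives are not given here. Equal sums shifted the median of all genes by 0.20 in CKD against Control. The splicing factors Esrp1 and Esrp2, which favour inclusion of Cd44 variant exons, stood at 0.11 ± 0.19 and -0.21 ± 0.22 (limma adjusted p = 0.675 and 0.456). A 3′ count gives 1 value per symbol and does not separate the 8 protein-coding Cd44 transcripts of the annotation.

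Of 7 tested proteases and partners of versican, 5 rose and none fell in CKD and 4 rose in CKD TRF (median 0.83 and 0.56). Fbln1, a matrix glycoprotein of the fibulin family, averaged 12.1 ± 1.84 scaled reads in CKD TRF, 13.1 ± 1.21 in CKD and 0.885 ± 0.279 in Control (SD, n = 4 each), a rise of 2.91 ± 0.18 in CKD (limma adjusted p = 4.04e-10). The microfibril protein Fbn1 rose by 1.82 ± 0.16 (limma adjusted p = 4.24e-08) and Fbln2 by 0.89 ± 0.25 (limma adjusted p = 0.00601). The Fbln2 call was lost under quantile normalization, with urothelium markers as a covariate and without the libraries that held fat RNA (changes of 0.53, 0.99 and 0.90; adjusted p = 0.0897, 0.108 and 0.0539). In CKD TRF it rose by 0.74 ± 0.25 (limma adjusted p = 0.0233), a call lost in 7 of 27 alternatives (adjusted p = 0.0505 to 0.283), among them the fits without CKD TRF 4 or Control 2 or 3. Of 14 genes that build chondroitin sulfate chains, the side chains of versican, 5 rose and none fell in each diseased group. These are 35.7% of the list, beside 45.4% of all tested genes called in CKD and 37.5% in CKD TRF. Chst15, a sulfotransferase, averaged 21.9 ± 6.96 scaled reads in CKD TRF, 21.2 ± 2.40 in CKD and 5.44 ± 1.74 in Control (SD, n = 4 each) and rose by 1.82 ± 0.21 in CKD (limma adjusted p = 1.24e-06). The chain polymerase Chsy3 rose by 1.65 ± 0.31 and the sulfotransferase Chst12 by 1.12 ± 0.26 (limma adjusted p = 0.000207 and 0.00159), with sizes that ran from 0.70 to 4.58 for Chsy3 and from 0.51 to 2.14 for Chst12 over the alternatives. Chsy3 had reads in only 2 of the 4 Control libraries, at 1.29 on the log2 scale in library 3 and 0.14 in library 1. In CKD TRF against Control Chsy3 rose by 0.92 ± 0.31 (limma adjusted p = 0.0231), a call lost in 8 of 27 alternatives (adjusted p = 0.0618 to 0.314), among them the fits without Control 1, 2 or 4 or CKD TRF 4.

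The genes whose profile over the 12 libraries lay nearest to that of Cd44, by root mean square difference of centred log2 values, were the cadherin Cdh11 (0.22), the latent TGF-beta binding protein Ltbp2 (0.25) and the collagen chain Col3a1 (0.27). In CKD TRF these stood 0.21, 0.48 and 0.41 below CKD on the log2 scale, without a call (limma adjusted p = 0.828, 0.743 and 0.705). The nearest to Vcan were Ajap1 (0.35), Neurl1a (0.40) and Tnfsf8 (0.41), each farther off than the 3 genes nearest to Cd44. For Hyal1 they were Dclre1b, Zw10 and Jarid2 (0.17, 0.18 and 0.19), and for Hyal2 Ndufs6, Snx5 and Poldip2 (0.08 each), all genes not called in any comparison. The SD over the 12 libraries was 0.29 for Hyal1 and 0.11 for Hyal2, against 1.42 for Cd44 and 1.03 for Vcan. Genes that vary little lie near each other by this measure, so the small distances of Hyal1 and Hyal2 do not mean a closer match. These values describe 12 libraries that share their disease grouping.

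**Figure D4:**
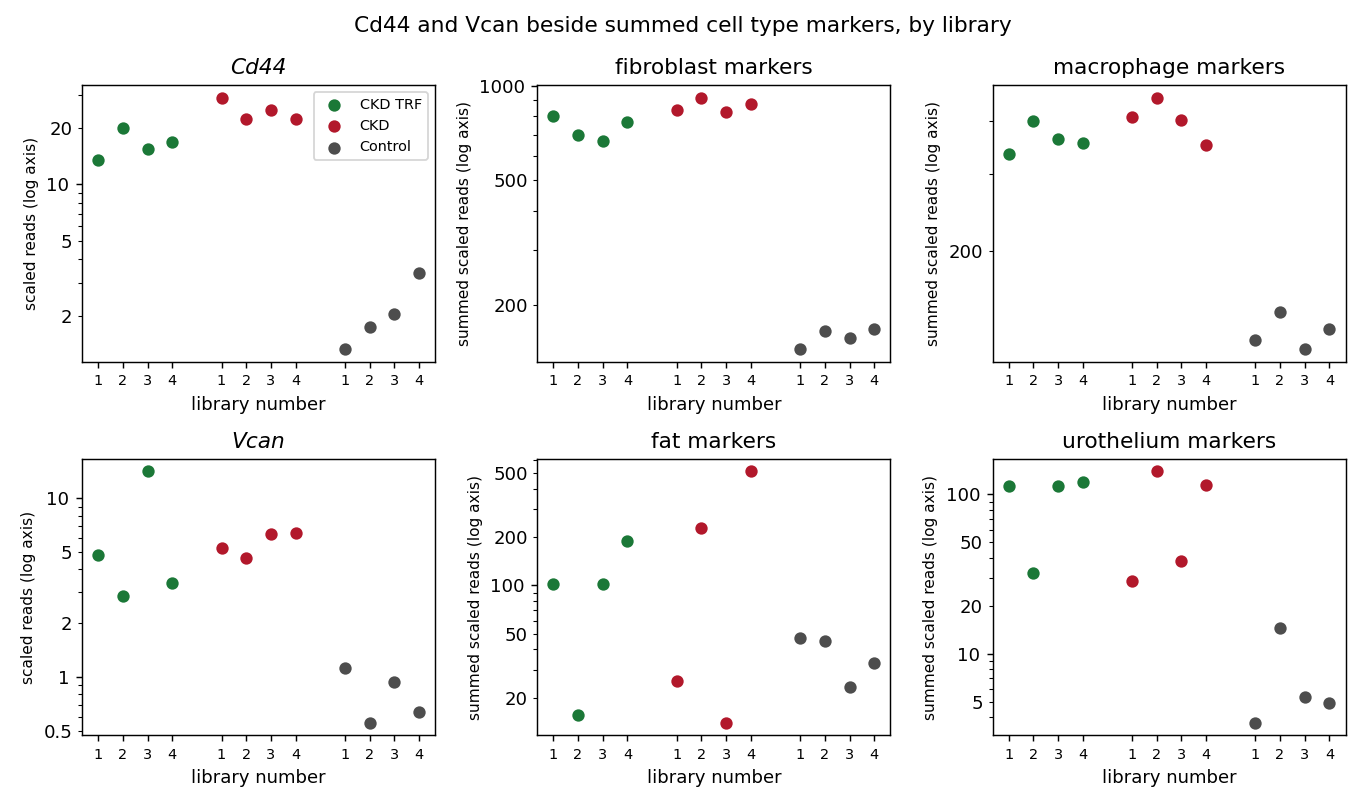
Cd44 and Vcan in scaled reads, beside the summed scaled reads of fibroblast, macrophage, fat and urothelium markers, for each library on log axes. Fibroblast, macrophage and urothelium sums are higher in all 8 diseased libraries than in Control, and fat sums are 102 or more in CKD TRF 1, 3 and 4 and CKD 2 and 4.

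Markers of several cell types moved with Cd44 and Vcan, and those of others did not. Of 6 proximal tubule markers none rose and 3 fell in CKD, and of 5 collecting duct markers 2 rose and 1 fell. Neither of 2 tested neutrophil markers was called, and of 2 tested B and plasma cell markers 1 rose. Of 5 endothelium markers 3 rose in CKD, as did all 4 lymphatic endothelium markers and the 1 tested mesothelium marker. In CKD TRF against Control 4 endothelium, 2 lymphatic endothelium and 1 mesothelium markers rose. There 4 injured tubule, 4 T cell, 3 fat, 3 collecting duct and 0 B and plasma cell markers rose. Among all tested genes 45.4% were called in CKD, 23.6% of them all as higher. All 6 fibroblast markers rose in CKD, at a sum of 669 to 801 scaled reads in CKD TRF, 826 to 920 in CKD and 145 to 167 in Control. All 6 macrophage markers rose as well, at a sum of 335 to 398 in CKD TRF, 352 to 452 in CKD and 118 to 144 in Control. The stromal and macrophage sums were thus apart from Control in every diseased library. Of 6 T cell markers 5 rose in CKD, with sums of 13.6 to 18.1 in CKD TRF, 16.2 to 23.8 in CKD and 2.47 to 3.57 in Control. All 5 markers of injured tubules rose in CKD, and their sum in Control was 15.1 to 21.0. All 6 urothelium markers rose, at 31.9 to 120 in CKD TRF, 28.5 to 140 in CKD and 3.68 to 14.6 in Control. Of 5 tested fat markers 4 rose in CKD, with Plin1 at 0 in every Control library. No marker of these lists was at 0 throughout a diseased group. The part of these cell types in the rise of Cd44 and Vcan was not tested. With urothelium markers as a covariate, whose mean log2 level did not overlap between Control and the diseased groups, Cd44 stood at 3.45 ± 0.31 in CKD (limma adjusted p = 4.76e-07). In that fit 10 of the 17 named genes of the 7 lists lost their call in CKD against Control and 7 kept it, Hexa, Cd74, Mmp14, Fbln1, Fbn1, Chst15 and Chsy3. The SE was larger in that fit. Several lost calls had changes near those without the covariate, such as Chst12 (1.23), Mmp9 (1.11), Tmem2 (0.44) and Pgm3 (-0.46). Others shrank, Stab1 from 0.78 to 0.46, Ugp2 from -0.47 to -0.28, Tlr4 from 0.73 to 0.58 and Gusb from -0.29 to -0.07. Fbln2 moved from 0.89 to 0.99 and Tlr2 from 1.19 to 1.02. Without the libraries that held fat RNA 5 of the 17 lost it, Fbln2, Gusb, Mmp9, Pgm3 and Tlr4. Of the 16 called in CKD TRF against Control, 10 lost their call with the urothelium covariate and 8 without the libraries that held fat RNA.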

How the data were processed

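Kidney RNA of 12 libraries was measured by QuantSeq 3′ mRNA sequencing, 4 per group as the titles give them. The deposited values are log2(scaled reads + 1), 1 per gene entry (23282 entries). This unit was read from the values, since the scaling by the authors is not given in the sources used here. Bowtie2, bedtools and mm10 are named per the submitters' processing notes, without versions. Low values were whole multiples of a step in each library (98.3 to 100% of values under 20 scaled reads, tolerance 0.1), which gave reads and depth. Whether counting used strand is not given in the sources used here.

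Values were fitted with limma 3.58.1 (R 4.3.3): a mean per group over all 12 libraries, a trended prior, two-sided moderated tests, and Benjamini-Hochberg adjustment over 13943 genes, the 60% with the highest mean level, with a threshold of 0.05. Fold changes on this scale understate the change of low genes. P-values measure the spread between these libraries, which may be technical. The procedure was tested on simulated data. CKD is shared by 2 of the comparisons and Control by 2, so these are not independent.

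The members, the pathway and marker lists and the tests were chosen with earlier results of these data known. The text names all 6 members, the 3 called genes of each list with the largest change in CKD against Control, and the 3 genes nearest in profile to each tested member. Hyal3, Ugdh, Lyve1, Hapln1, Spp1, Adam10, Adam17, Ezr, Msn, Rdx, Esrp1 and Esrp2 fall outside this rule and were chosen after their values were seen. A withheld gene is not reported here. Gene positions are from GENCODE M21 (GRCm38) and promoters from RefSeq. Alternatives changed the filter, the number added before logs, the scaling, the test, covariates and the libraries used. The voom fit with no filter was added after seeing the data.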

Additional observations from a re-analysis of the deposited data

Results flagged for a closer look

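In 101 groups of 4 values screened, 7 had a library far from the other 3, where chance flags about 1 in 20. Each is given with its gap to the nearest library as a share of the group's range, and with levels as log2(scaled reads + 1).

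Has1 in CKD TRF 3 stood at 0.50 against 0 in the other CKD TRF libraries (share 1.0), and the same library was low for Tlr4, at 2.12 against 2.61 to 2.69 (share 0.863), and for Col3a1, at 7.02 against 7.58 to 7.64 (share 0.912). In Control, Chsy3 stood at 1.29 in library 3 against 0 to 0.14 (share 0.891) and Cdh11 at 4.00 in library 4 against 3.37 to 3.44 (share 0.88). Jarid2 stood at 5.98 in Control 2 against 6.63 to 6.71 (share 0.894), and Ndufs6 at 8.64 in Control 1 against 8.35 to 8.39 (share 0.854).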

How the results depend on the processing

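Cd44 kept its call against Control under all 28 alternatives, with changes between 2.23 and 3.80 for CKD and between 1.74 and 3.13 for CKD TRF, and Vcan kept it in CKD under all 27 that could test it. The count of members called was 1 under the upper 40% filter in both comparisons with Control, where Vcan was not tested. In CKD TRF against Control it was also 1 with the urothelium covariate and without the libraries that held fat RNA. It was 2 in every fit that left out 1 library, and 0 between CKD TRF and CKD throughout. Genes called numbered 2592 and 4037 in CKD and 1341 and 1478 in CKD TRF, both against Control, with the urothelium covariate and without the libraries that held fat RNA. Between CKD TRF and CKD 1 gene was called with no filter, in voom with no filter and without CKD TRF 1. Signs turned, with no value called and the cause not tested, as follows. Hyal2 in CKD TRF against Control was 0.14 (equal sums), 0.15 (voom with and without the filter, urothelium covariate), 0.029 (fat covariate), 0.012 (sample weights) and 0.077 (without fat libraries), and ran from -0.041 to 0.065 with 1 library left out. Hyal2 in CKD against Control was 0.11 (equal sums), 0.12 (both voom fits) and 0.032 (urothelium covariate). Hyal1 was -0.14 in CKD and -0.22 in CKD TRF against Control under quantile normalization. In CKD TRF against Control it was -0.011 with median centring and -0.031 with sample weights, and ran from -0.069 to 0.22 with 1 library left out. Between CKD TRF and CKD Hyal1 was 0.36 without fat libraries and ran from -0.26 to 0.032 with 1 left out, and Vcan ran from -0.52 to 0.14. Same-numbered libraries did not deviate together (r from -0.179 to 0.11), so the numbers were not taken as pairs. With a replicate block 6131 genes were called in CKD and 5033 in CKD TRF against Control and 0 between CKD TRF and CKD, and members called stayed at 2, 2 and 0 in that order. Reads limit Has1 and Has2, with 0 to 9 per library, and Vcan in Control, with 6 to 11.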
